A study of Mus musculus with 16 samples.

Results

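Neurotrophic factors are secreted proteins that keep neurons alive and guide their axons, and 8 genes of this system were followed across the cells of the mouse lung. They were the rows of the count matrix named Bdnf, Ntf3, Gdnf, Nrtn, Artn, Ngfr, Ntrk2 and Ntrk3, and all 8 were present among its 38003 genes. Live cells of dissociated lungs had been sorted and profiled by split-pool barcoding of polyA RNA in fixed cells (Parse Evercode WT v3), which left 80449 cells of 22 annotated types from 15 samples.

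The lungs came from 6 groups of mice. Mice of the group 6-OHDA-PDAC (2 samples) received 6-hydroxydopamine, a toxin taken up by catecholamine neurons that destroys sympathetic nerve endings, and carried seeded cells of pancreatic ductal adenocarcinoma (PDAC). Those of BIBO3304-PDAC (2 samples) received BIBO3304, an antagonist of the Y1 receptor for neuropeptide Y, and the same seeding, and vehicle-PDAC (2 samples) is the seeded group under vehicle. The groups 6-OHDA, BIBO3304 and vehicle (3 samples each) had the same treatments without seeding. The labels name no strain, age, dose or duration, nor whether a sample is a single mouse or a pool, so the p-values measure only how these samples vary, which may be technical. The line of the seeded PDAC cells is not named either.

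Neurotrophins act through Trk receptor tyrosine kinases: Bdnf, brain-derived neurotrophic factor, binds TrkB (Ntrk2), and Ntf3, neurotrophin-3, binds TrkC (Ntrk3), while the p75 receptor (Ngfr) binds all neurotrophins. The GDNF family (Gdnf, Nrtn for neurturin, Artn for artemin) signals through the kinase Ret together with a GPI-anchored co-receptor of the Gfra family. In peripheral organs such factors come from target tissue, smooth muscle in particular, and support the sensory and autonomic nerves that reach it.

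Depth ran from 10003796 to 32580698 transcripts per sample. All members were scarce: Ntrk3 had 2943 transcripts in all, Ntrk2 2555, Gdnf 1679, Bdnf 1039, Ntf3 956, Nrtn 215, Artn 188 and Ngfr 102. Of 101 markers of the annotated types, 86 were highest in their own type, and the exceptions included 3 of 5 markers of monocytes and 4 of 5 of cancer cells. Onecut2 was the cancer marker that was highest in cancer cells, while Krt19, Krt8, Epcam and Muc1 were higher in normal epithelium. One library goes against its label: vehicle-PDAC 2 held no cancer cell among 9157 cells, whereas the other 5 seeded samples held 33 to 75, so the named differences of the seeded groups are also given without it. Such a refit leaves a group of 1 sample, which is assumed to vary like the other groups. No barcode triplet was shared between samples, which is no test of how well samples were separated, and 8740 were seen in more than 1 sublibrary. The labels say nothing of doublets and no doublet caller was run. Schwann cells and neurons were nearly absent from the suspension, with 2 transcripts of Sox10 and 3 of Th in all cells, so that the members are described here in the tissue cells and not in nerve.

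Among the ligands, Gdnf was a transcript of alveolar type 2 cells, the surfactant-making cells of the alveolus. These held 1471 of its 1679 transcripts (87.6%), although they gave only a small part of the RNA: all epithelial types together made up 7.42% of transcripts. Their level in CPM (the library-scaled count, which sets a gene's transcripts against all transcripts of the same cells) was 83.9 ± 32.9 (SD, n = 15), with a lowest sample of 39.7, a median of 79.1 and a highest of 143. Transcripts were found in 17.8% of the cells, against 0.110% of alveolar macrophages at a like depth (medians of 3025 and 2932 transcripts per cell). After thinning every cell to 1000 transcripts these shares were 7.30% and 0.0235%. Up to 30 transcripts were counted in a single alveolar type 2 cell, and the 4 marker genes fixed for this type (Sftpc, Lamp3, Sftpb, Abca3) were all highest in it.

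The Gdnf gene has 2 annotated starts on chromosome 15, and the 250 bases before each are shown because expression of this member was the most restricted to 1 type (RefSeq, GRCm38.p6, plus strand, chr15:7809798-7810047 and chr15:7813477-7813726). The capitals mark CAAGTG or its complement CACTTG, the core bound by NKX2-1, a factor of lung epithelium.
Gdnf, first start: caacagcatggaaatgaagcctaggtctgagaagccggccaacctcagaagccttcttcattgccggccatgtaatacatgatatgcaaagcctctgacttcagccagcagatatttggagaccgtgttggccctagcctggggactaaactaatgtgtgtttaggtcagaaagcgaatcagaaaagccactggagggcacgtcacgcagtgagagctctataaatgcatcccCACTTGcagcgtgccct
Gdnf, second start: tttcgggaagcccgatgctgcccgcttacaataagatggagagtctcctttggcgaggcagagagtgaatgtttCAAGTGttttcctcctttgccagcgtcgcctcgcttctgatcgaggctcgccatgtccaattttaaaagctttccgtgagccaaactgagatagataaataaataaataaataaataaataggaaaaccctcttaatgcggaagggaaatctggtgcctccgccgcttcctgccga
Each window holds 1 match. The motif was 1 of 8 searched on both strands after the levels were known, and 11.6% of all 32851 windows of this length hold it, so that a match is a description of the letters only. Among the 15 windows of the 7 members in the table, 5 hold it, those of Artn, Gdnf, Ngfr and Ntf3. The others searched were the CArG box bound by serum response factor (in none of the 15 windows, 1.47% of all), TGACGTCA of the cAMP response (none, 1.55%), CACGTG (1 window, of Ntf3, 6.02% of all), TGTTTAC of FOXA (none, 3.17%), CATTCC of TEAD (2 windows, of Bdnf, 12.6%), AGATAA of GATA factors (5 windows, of Bdnf, Gdnf and Nrtn, 9.99%) and GGAAA of NFAT (11 windows, of Bdnf, Gdnf, Nrtn and Ntf3, 55.6%).

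Outside alveolar type 2 cells Gdnf was far lower. Peribronchial fibroblasts, which surround the airways, had 12.8 ± 9.27 CPM (n = 15) with a highest sample of 26.8, below the lowest sample of alveolar type 2 cells. The cancer cells had 4.83 ± 1.78 CPM (n = 5), and alveolar fibroblasts 0.897 ± 0.993 CPM (n = 15). Alveolar type 1 cells, the thin cells of the gas exchange surface, showed 10 transcripts in 191 cells, 21.8 CPM when pooled with a 95% counting interval of 10.4 to 40.1 (intervals cover counting error only).

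Bdnf was spread over more types, with mesenchymal cells holding 63.1% of its transcripts. Alveolar type 1 cells had the highest level, 91.6 and 200 CPM in the 2 samples with at least 20 such cells, and 46 of 191 cells (24.1%) carried a transcript. Smooth muscle cells and pericytes, which form the walls of airways and vessels, had 50.5 ± 36.5 CPM (n = 15), from 0 to 109. Cancer cells had 28.0 ± 13.1 CPM (n = 5) and peribronchial fibroblasts 24.2 ± 21.2 CPM (n = 15). Mesothelial cells, the lining of the lung surface, had 23.6 ± 24.9 CPM (n = 14). These neighbours could not be ordered beyond their spread: smooth muscle cells exceeded cancer cells in 2 of 5 samples, and peribronchial fibroblasts exceeded mesothelial cells in 6 of 14. Alveolar fibroblasts, the main mesenchymal cell of the alveolar wall, were lower at 7.71 ± 2.51 CPM (n = 15) but held the largest share of all Bdnf transcripts, 40.4%. Adventitial fibroblasts, from the sheaths of large vessels and airways, had 6.26 ± 6.41 CPM (n = 15), and in BIBO3304 2 a single cell gave 20 of their 21 transcripts. In alveolar macrophages 0.0593% of cells carried Bdnf, against 1.43% of alveolar fibroblasts.

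Ntf3 was highest in smooth muscle cells and pericytes, at 113 ± 77.5 CPM (n = 15) with a lowest sample of 0, a median of 104 and a highest of 280. A transcript was found in 12.9% of these cells, against 0.131% of alveolar macrophages. When the cells were divided by their smooth muscle genes (Acta2, Myh11, Tagln, Des, Cnn1) and pericyte genes (Cox4i2, Pdgfrb, Higd1b, Gucy1a1, Notch3), 409 cells had more of the first and 232 more of the second, and 28 had a single marker transcript and lie at the edge of that division. Ntf3 was higher in the smooth muscle part in 12 of 15 samples and lower in 2, at 123 and 78.9 CPM when pooled. These parts held 105 and 30 Ntf3 transcripts. The pericyte part was as small as 5 cells in 6-OHDA 1 and 7 in vehicle 2, with 0 Ntf3 transcripts in both, so the count of samples rests on few transcripts. Below these cells stood peribronchial fibroblasts (15.01 ± 12.8 CPM), adventitial fibroblasts (14.5 ± 6.98), alveolar type 2 cells (10.98 ± 7.24) and alveolar fibroblasts (4.69 ± 2.27 CPM, n = 15 each). Peribronchial fibroblasts exceeded adventitial ones in only 6 of 15 samples and adventitial fibroblasts exceeded alveolar type 2 cells in 10 of 15, so that the middle of this order was not separated.

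Nrtn, the ligand that pairs with Gfra2, and Artn, which pairs with Gfra3, were rare. Alveolar fibroblasts held 145 of the 215 Nrtn transcripts, at 2.92 ± 1.32 CPM (n = 15), lowest sample 1.38, median 2.63 and highest 5.38. Alveolar type 2 cells held another 22, at 1.41 ± 1.57 CPM. Nrtn was seen in 0.898% of alveolar fibroblasts and in 0.0169% of alveolar macrophages. Artn was highest in club cells, at 21.0 and 25.8 CPM in the 2 samples with at least 20 of them. This rests on 7 transcripts in 161 cells. Pooled, club cells had 9.03 CPM (counting interval 3.63 to 18.6) and adventitial fibroblasts 2.65 CPM (1.91 to 3.58). More transcripts lay in adventitial fibroblasts (42 transcripts, 2.58 ± 1.03 CPM), alveolar fibroblasts (60 transcripts, 1.07 ± 0.746 CPM) and alveolar macrophages (35 transcripts, 0.435 ± 0.310 CPM, n = 15 each). Alveolar type 2 cells held 19, at 1.34 ± 1.19 CPM, and exceeded alveolar fibroblasts in 7 of 15 samples. Adventitial cells were above 0 in all 15 samples. In alveolar macrophages 0.127% of cells carried Artn, close to their 0.131% for Ntf3 and 0.110% for Gdnf. At so few transcripts free RNA cannot be told apart from expression, and its part was not tested. Alveolar macrophages held 18.6% of all Artn transcripts, beside 2.33% of those of Nrtn, 2.94% of Ngfr and 1.44% of Bdnf.

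**Figure D1:**
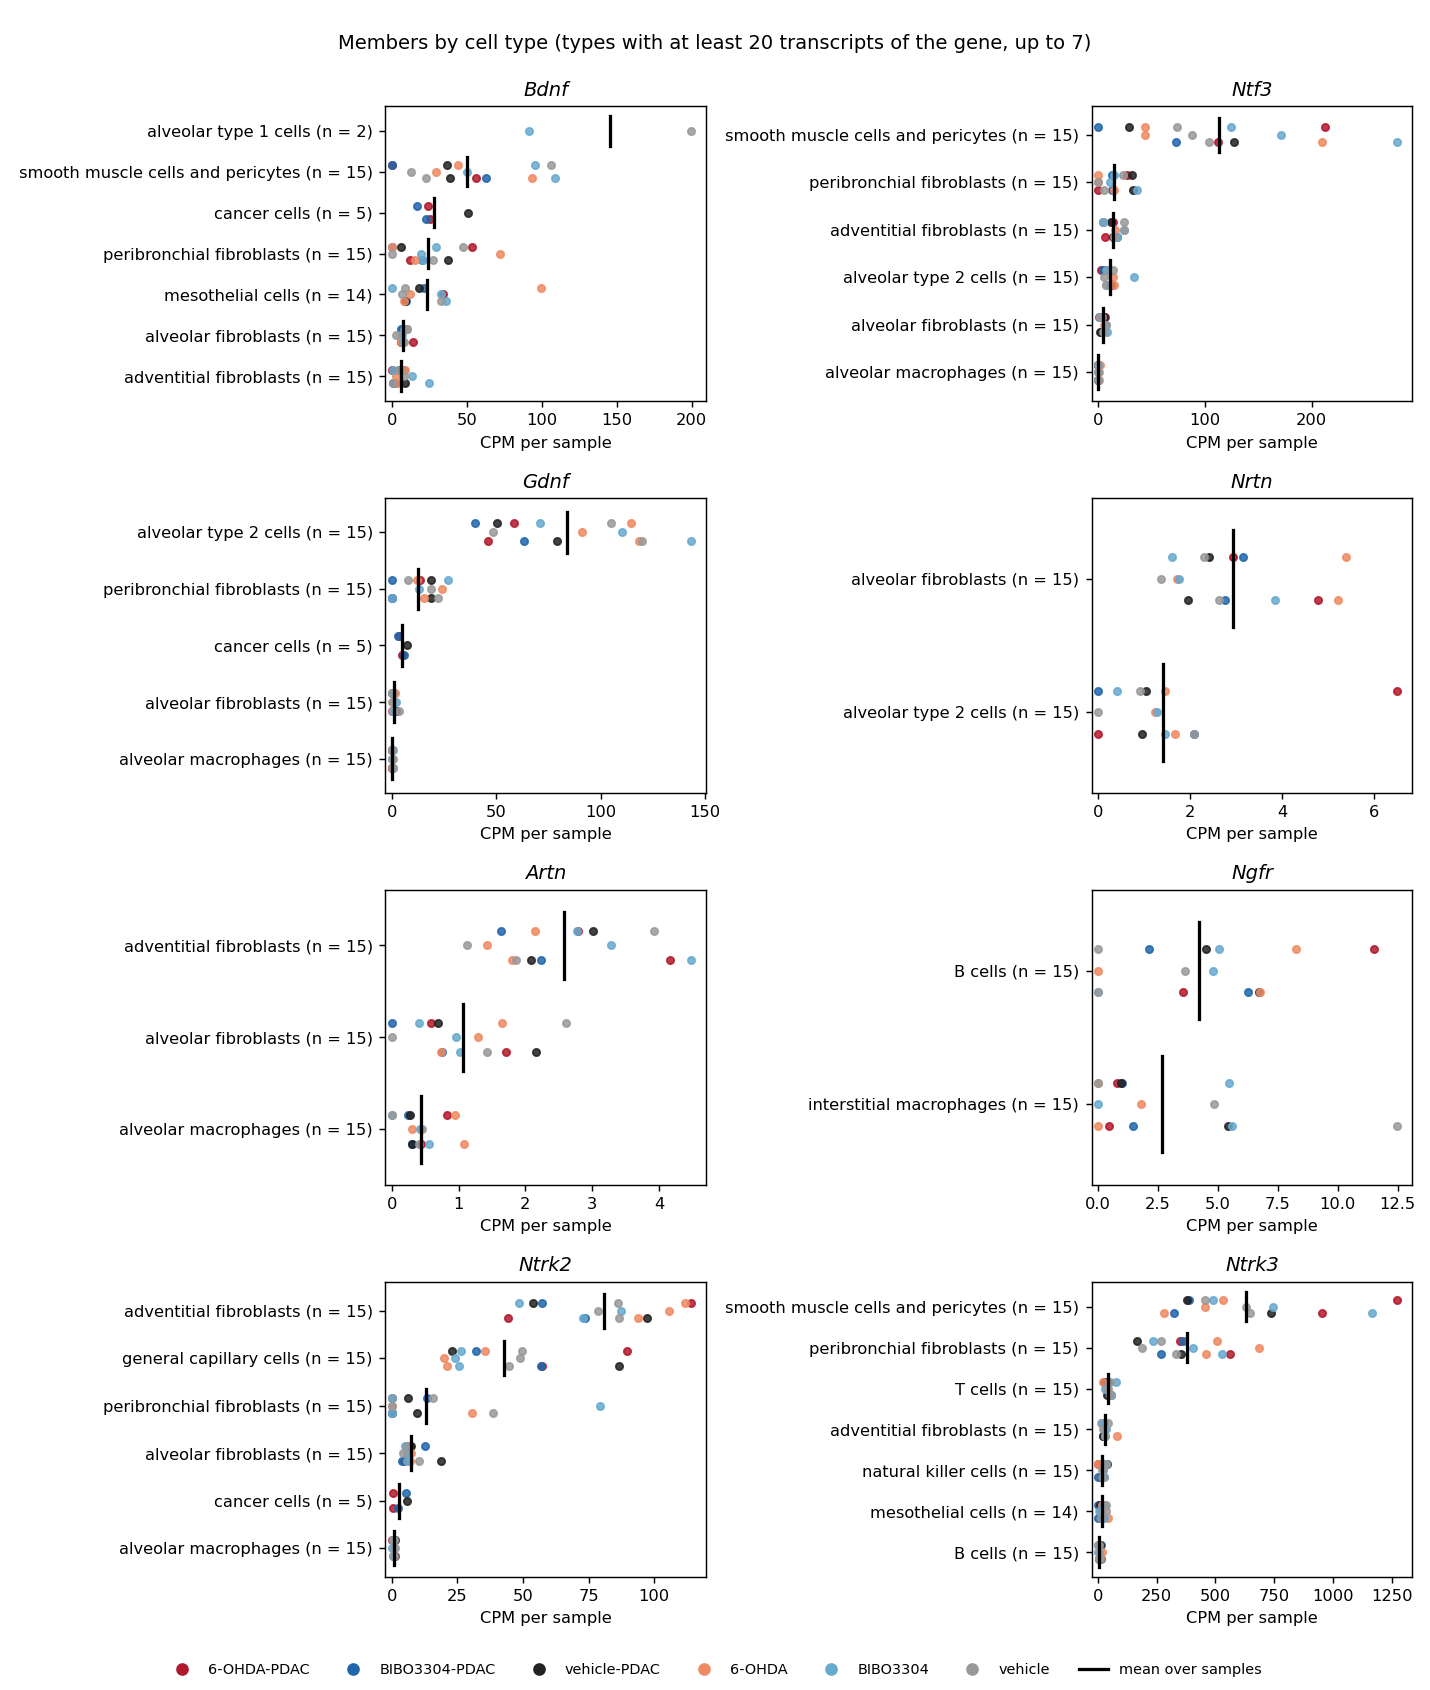
CPM of each gene (horizontal axis, linear, own scale per panel) in the cell types with at least 20 of its transcripts, up to 7 per gene; points are samples with at least 20 cells of the type, coloured by group, and the black line is the mean over samples. Gdnf in alveolar type 2 cells (39.7 to 143 CPM) and Ntrk3 in smooth muscle cells and pericytes (280 to 1274 CPM) stand apart from most other types, while the Bdnf levels of neighbouring types overlap.

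Of the receptors, Ntrk3 was found in a larger share of a cell type than any other member. Smooth muscle cells and pericytes had 631 ± 300 CPM (n = 15), from 280 through a median of 533 to 1274, and 43.8% of cells carried a transcript, against 0.559% of alveolar macrophages. The level did not follow the division of this type: the pericyte part was higher in 8 samples and the smooth muscle part in 7, at 631 and 608 CPM when pooled. Peribronchial fibroblasts followed with 377 ± 148 CPM (164 to 684) and were below smooth muscle cells and pericytes in 13 of 15 samples. T cells had 44.7 ± 14.4 CPM (20.8 to 76.5), lower than peribronchial fibroblasts in 15 of 15 samples. Adventitial fibroblasts had 29.6 ± 15.9 CPM, natural killer cells 19.4 ± 12.4 (n = 15 each) and mesothelial cells 18.5 ± 13.3 CPM (n = 14). Natural killer cells exceeded mesothelial cells in 8 of 14 samples, so that these did not differ beyond their spread. Ligand and receptor were thus both highest in the same annotated type, and 55 of 667 of its cells carried transcripts of both Ntf3 and Ntrk3. Of the cells with Ntf3, 64.0% had Ntrk3, against 40.8% of the rest, at median depths of 2069 and 1430 transcripts.

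In T cells, 200 of 3084 cells (6.49%) carried Ntrk3, up to 15 transcripts in a cell. Among T cells thinned to 1000 transcripts, those with Ntrk3 more often had Lef1, a factor of naive T cells (59.6% against 41.1%), and Ccr7, a lymph node homing receptor (21.1% against 15.6%). They less often had Rora (31.7% against 44.7%) and Il1rl1 (1.86% against 6.71%), genes of type 2 innate lymphoid cells and helper T cells. The T cell genes Trac (3.73% against 7.36%), Cd3e (6.83% against 7.97%), Cd3d (1.24% against 2.49%) and Cd8a (1.24% against 3.05%) were also seen in a smaller share of the cells with Ntrk3. Cd4 (4.35% against 3.66%) and Cd8b1 (2.48% against 1.92%) were seen in a larger share of them, so T cell genes went both ways. These shares compare 161 cells with 2132 and describe the cells without a test.

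Ntrk2 was highest in adventitial fibroblasts, at 80.8 ± 22.3 CPM (n = 15), from 44.4 through a median of 86.3 to 114, and 16.2% of cells carried a transcript, against 0.334% of alveolar macrophages. General capillary cells, the endothelium that renews the alveolar capillaries, had 42.8 ± 22.5 CPM (19.8 to 89.8) and were lower than adventitial fibroblasts in 14 of 15 samples. The neighbouring aerocyte, large-vessel and lymphatic endothelium had far less, with 23 of the 690 endothelial transcripts between them. Alveolar fibroblasts had 7.40 ± 3.91 CPM (4.01 to 18.8). Peribronchial fibroblasts averaged 12.9 ± 22.0 CPM, but their median was 0, and a single cell of BIBO3304 2 gave 36 of their 51 transcripts. Smooth muscle cells and pericytes held only 11 transcripts of Ntrk2, beside 767 of Ntrk3.

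Ngfr was close to undetected. It had 102 transcripts in all, of which interstitial macrophages held 23 (2.69 ± 3.49 CPM), B cells 21 (4.22 ± 3.42 CPM) and dendritic cells 17 (2.57 ± 3.18 CPM, n = 15 each). B cells carried it in 0.971% and alveolar macrophages in 0.0127% of cells. After thinning, 2 B cells and 7 interstitial macrophages kept a transcript. T cells had 0 in 3084 cells, which allows a share of cells with a transcript of up to 0.0973%.

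The partners of these members lay in other cells in several cases. Ntf5, which encodes neurotrophin-4, was an alveolar type 2 transcript (118 of 162). Ret was highest in T cells (96.1 CPM, counts pooled over samples) and natural killer cells (40.5). The Gdnf co-receptor Gfra1 was highest in ciliated cells (266 CPM) and club cells (113), and the neurturin co-receptor Gfra2 in alveolar fibroblasts (48.4 CPM). In vehicle lungs interstitial macrophages had 96.6 ± 41.7 CPM of Gfra2 (n = 3), so the pooled order need not hold in each group. Sorcs1, a sortilin-related receptor, and Cntfr, the receptor for ciliary neurotrophic factor, were highest in peribronchial fibroblasts (63.7 and 94.1 CPM).

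Across the 22 types, the genes with the most similar pattern to a member were taken by Pearson's r of log2(CPM + 1) over 10727 genes, as a description over types that share libraries and depth. For Gdnf they were Rab3c, Prmt8, Tex15, Rbpjl and Irx1 (r = 0.87 to 0.81), all highest in alveolar type 2 cells. For Ntf3 they included Lmod1, Lipg, Itih4 and Tmem200a (0.87 each), all highest in smooth muscle cells and pericytes. For Ntrk3 they were Synpo2, Tcap, Kcnma1, Grin2a and Mark1 (0.86 to 0.83), and for Ntrk2 Has2os, Pknox2, Plpp3, Cxcl12 and Nhs (0.80 to 0.75). For Bdnf they were Fzd2, Htra1, Slc4a3, Cys1 and Pak3 (0.89 to 0.85). For Nrtn they were Lipg, Hspb7, Cacna1c, Pth1r and Rasl12 (0.94 to 0.86, with 7 Nrtn transcripts in smooth muscle cells and pericytes), for Artn Ces1f, Defb1, Aldh3a1, Acsm1 and Krt17 (0.90 to 0.87, resting on 7 transcripts in club cells) and for Ngfr Siglecg, Ly6d, Blnk, Clec10a and Hepacam2 (0.80 to 0.68). Between members the highest r was 0.87, for Ntf3 and Nrtn, a value that includes the 7 Nrtn transcripts of smooth muscle cells and pericytes, and that of Ntf3 and Ntrk3 was 0.70.

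The design asks whether removing sympathetic endings, blocking the Y1 receptor or seeding PDAC cells changes the lung. Each comparison was tested within every type with enough cells and in the sum of all cells of a sample, by edgeR's quasi-likelihood test with Benjamini-Hochberg adjustment over all genes and a threshold of 0.05. Of the members, 18 pairs of gene and type passed the filter on low counts, in 9 types: Bdnf in 3, Ntf3 in 4, Gdnf in 1, Nrtn in 1, Ntrk2 in 3 and Ntrk3 in 6, while Artn and Ngfr passed in none. In the sum of all cells 7 members passed and Ngfr did not. No member was called in any of the 7 tests, within a type or over the whole lung. The pairs with the smallest p in each are given below and none of them passed. Where groups are said not to overlap, the share of all genes that did so was not counted, so this only describes the pair. Pairs not named could lack overlap too. Ntrk2 in adventitial fibroblasts had 93.8 to 112 CPM in 6-OHDA lungs and 78.7 to 86.7 CPM in vehicle lungs. Fold changes are edgeR's log2 fold changes ± SE.

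6-OHDA against vehicle called 0.0705% of all genes tested within types, and 0 of 18 member pairs, of which 2 had an unadjusted p under 0.05, as did 7.54% of all genes tested within types. Ntrk3 in peribronchial fibroblasts had 461, 684 and 505 CPM in 6-OHDA lungs, against 332, 186 and 268 CPM in vehicle lungs. The groups did not overlap, and the difference of 0.97 ± 0.31 had an adjusted p of 0.692 (edgeR). These values rest on 34 to 50 such cells per sample in 6-OHDA lungs and 43 to 121 in vehicle lungs. Ntrk2 in general capillary cells had 21.2, 19.8 and 35.7 CPM in 6-OHDA lungs, against 44.8, 48.7 and 49.7 CPM in vehicle lungs. All 6-OHDA samples were the lower ones, with a log2 fold change of -0.94 ± 0.37 and an edgeR adjusted p of 0.552. Nrtn in alveolar fibroblasts had 5.21, 1.71 and 5.38 CPM in 6-OHDA lungs and 2.63, 1.38 and 2.31 CPM in vehicle lungs, which overlapped (0.83 ± 0.49, edgeR adjusted p = 0.748). Gdnf in alveolar type 2 cells was 108 ± 14.9 CPM in 6-OHDA lungs and 91.0 ± 37.6 CPM in vehicle lungs (SD, n = 3 each). In the sum of all cells, where 0.00572% of genes were called and fewer cells of a type cannot be told apart from less RNA per cell by the sum alone, the smallest p was that of Nrtn. It had 1.56, 0.726 and 1.70 CPM in 6-OHDA lungs and 0.890, 0.225 and 0.745 CPM in vehicle lungs (0.94 ± 0.46, edgeR adjusted p = 0.421).

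BIBO3304 against vehicle called 0.312% of genes within types and 0 of 18 member pairs, and 2 pairs had an unadjusted p under 0.05, as did 12.6% of all genes tested within types. Ntrk2 in general capillary cells had 25.7, 24.1 and 26.6 CPM in BIBO3304 lungs, against 44.8, 48.7 and 49.7 CPM in vehicle lungs. These groups did not overlap, with a fold change of -0.89 ± 0.31 that did not pass (edgeR adjusted p = 0.315). The vehicle samples are those of the comparison with 6-OHDA, so the low values under both treatments share their baseline. The share of capillary cells with a transcript did not follow these levels, at 3.22% to 5.17% in BIBO3304 lungs and 3.49% to 4.09% in vehicle lungs, where cells were shallower. Ntf3 in smooth muscle cells and pericytes had 280, 171 and 124 CPM in BIBO3304 lungs, against 104, 88.0 and 73.5 CPM in vehicle lungs. The groups did not overlap (1.04 ± 0.50, edgeR adjusted p = 0.432), on 13 to 18 transcripts per BIBO3304 sample and 7 to 9 per vehicle sample. Bdnf in adventitial fibroblasts had 24.7, 13.8 and 0.694 CPM in BIBO3304 lungs and 0.932, 7.87 and 4.90 CPM in vehicle lungs. Those values overlapped (1.42 ± 0.79, edgeR adjusted p = 0.483), and without the top cell of each sample the BIBO3304 levels were 9.13, 0.672 and 0.

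Over the whole lung, BIBO3304 against vehicle was the comparison with most calls, 15.7% of genes, and Gdnf came nearest to the threshold. At an unadjusted p under 0.05 stood 34.5% of all genes and 2 of 7 members. It had 13.5, 10.9 and 7.504 CPM in BIBO3304 lungs, against 6.79, 1.73 and 6.49 CPM in vehicle lungs. The groups did not overlap, with a log2 fold change of 0.997 ± 0.359 and an edgeR adjusted p of 0.0691. Alveolar type 2 cells, its main source, gave 8.74% to 9.54% of transcripts in BIBO3304 lungs and 2.64% to 5.83% in vehicle lungs, and their part in the result was not tested. Within alveolar type 2 cells the values overlapped, at 143, 110 and 71.1 CPM in BIBO3304 lungs and 120, 48.4 and 105 CPM in vehicle lungs (0.15 ± 0.20, edgeR adjusted p = 0.778). Whole-lung Gdnf passed the threshold with DESeq2 (adjusted p = 0.0371), with no filter on low counts (7.97e-05), without vehicle-PDAC 1 (0.0443) and without vehicle-PDAC 2 (0.0428), samples which enter this fit only through the shared spread.

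**Figure D2:**
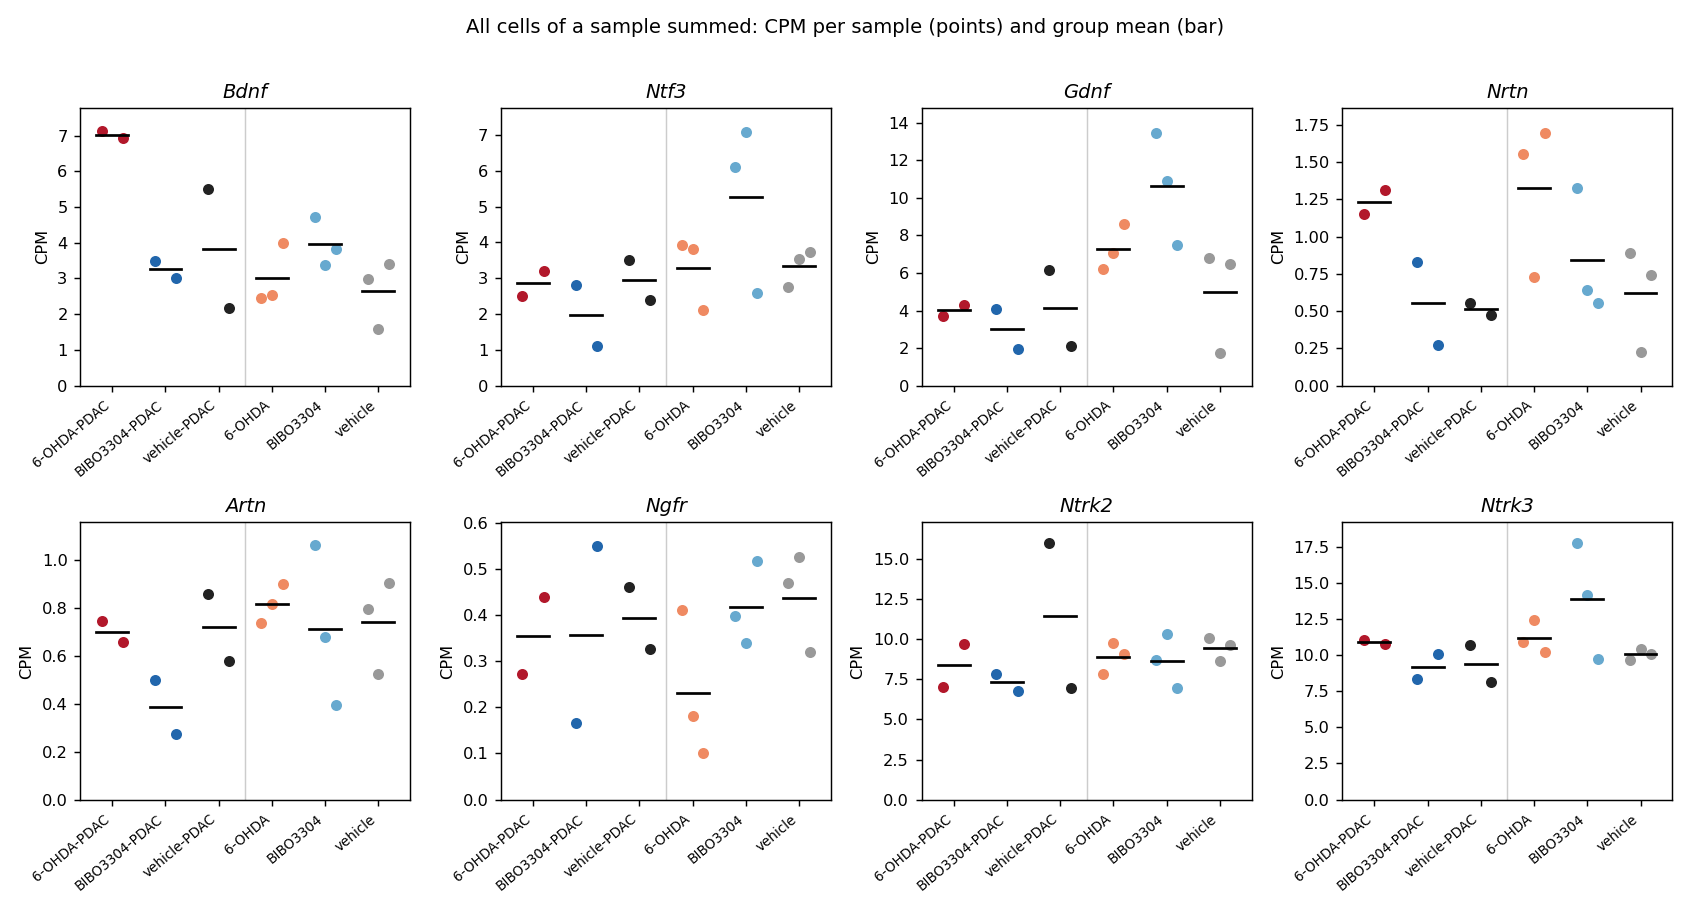
CPM of each member in the sum of all cells of a sample (vertical axis from 0, own scale per panel) by group (horizontal axis); points are samples and bars group means. Gdnf is 7.504 to 13.5 CPM in BIBO3304 lungs and 1.73 to 6.79 CPM in vehicle lungs, and Ntrk2 is highest in vehicle-PDAC 1 at 16.02 CPM.

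Seeding under vehicle, vehicle-PDAC against vehicle, called 0.00176% of genes within types and none over the whole lung (0%), and no member. At an unadjusted p under 0.05, edgeR had 4.8% of genes and 2 of 18 member pairs within types. Over the whole lung it had 1048 of 17481 genes (6%) and 0 of 7 members. Ntrk2 in alveolar fibroblasts had 18.8 and 7.24 CPM in vehicle-PDAC lungs, against 10.5, 4.14 and 6.07 CPM in vehicle lungs. The high sample is vehicle-PDAC 1, where 35 of 1055 alveolar fibroblasts carried a transcript, up to 16 in a cell. The fold change was 1.02 ± 0.36 (edgeR adjusted p = 0.429), 1.42 without vehicle-PDAC 2 (0.0821) and 0.27 without vehicle-PDAC 1 (0.995). Ntrk3 in alveolar macrophages had 1.53 and 2.44 CPM in vehicle-PDAC lungs and 0.818, 1.79 and 0.695 CPM in vehicle lungs (1.04 ± 0.46, edgeR adjusted p = 0.775; 0.54 without vehicle-PDAC 2), at the low share of cells set out above. Gdnf in alveolar type 2 cells had 79.1 and 50.5 CPM in vehicle-PDAC lungs and 120, 48.4 and 105 CPM in vehicle lungs (-0.34 ± 0.23, edgeR adjusted p = 0.9998; -0.32 without vehicle-PDAC 2).

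The seeded cells themselves carried Bdnf. Of 312 cells annotated as cancer cells, all but 4 came from seeded samples, and 102 (32.7%) held a Bdnf transcript at a median depth of 19016 transcripts per cell. At 1000 transcripts per cell the share was 1.97%. Bdnf stood at 25.3 and 24.1 CPM in 6-OHDA-PDAC cancer cells and at 22.8 and 16.9 CPM in BIBO3304-PDAC cancer cells, against 50.7 CPM in vehicle-PDAC 1. The vehicle-PDAC sample is the highest, and there is no second one with cancer cells, so that the difference from vehicle-PDAC has no replicate on that side. The main fits, which require 2 samples per group, did not test this difference. A fit that allowed groups of 1 sample is described with the processing below. Cancer cells also held 39 transcripts of Gdnf, 41 of Ntrk3 and 21 of Ntrk2.

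Whole-lung Bdnf includes these cells. It had 5.49 and 2.17 CPM in vehicle-PDAC lungs, against 2.998, 1.58 and 3.40 CPM in vehicle lungs (0.61 ± 0.30, edgeR adjusted p = 0.863; 0.99 without vehicle-PDAC 2 and 0.06 without vehicle-PDAC 1). In seeded samples with cancer cells they held 31.7% to 54.7% of its transcripts, while giving 4.85% to 14.9% of all transcripts. Whole-lung Bdnf was 7.12 and 6.94 CPM in 6-OHDA-PDAC lungs and 3.48 and 3.02 CPM in BIBO3304-PDAC lungs, against 5.49 and 2.17 CPM in vehicle-PDAC lungs. Without the cancer cells it was 4.24 and 3.95 CPM in 6-OHDA-PDAC lungs and 2.497 and 1.52 CPM in BIBO3304-PDAC lungs, against 2.64 and 2.17 CPM in vehicle-PDAC lungs.

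**Figure D3:**
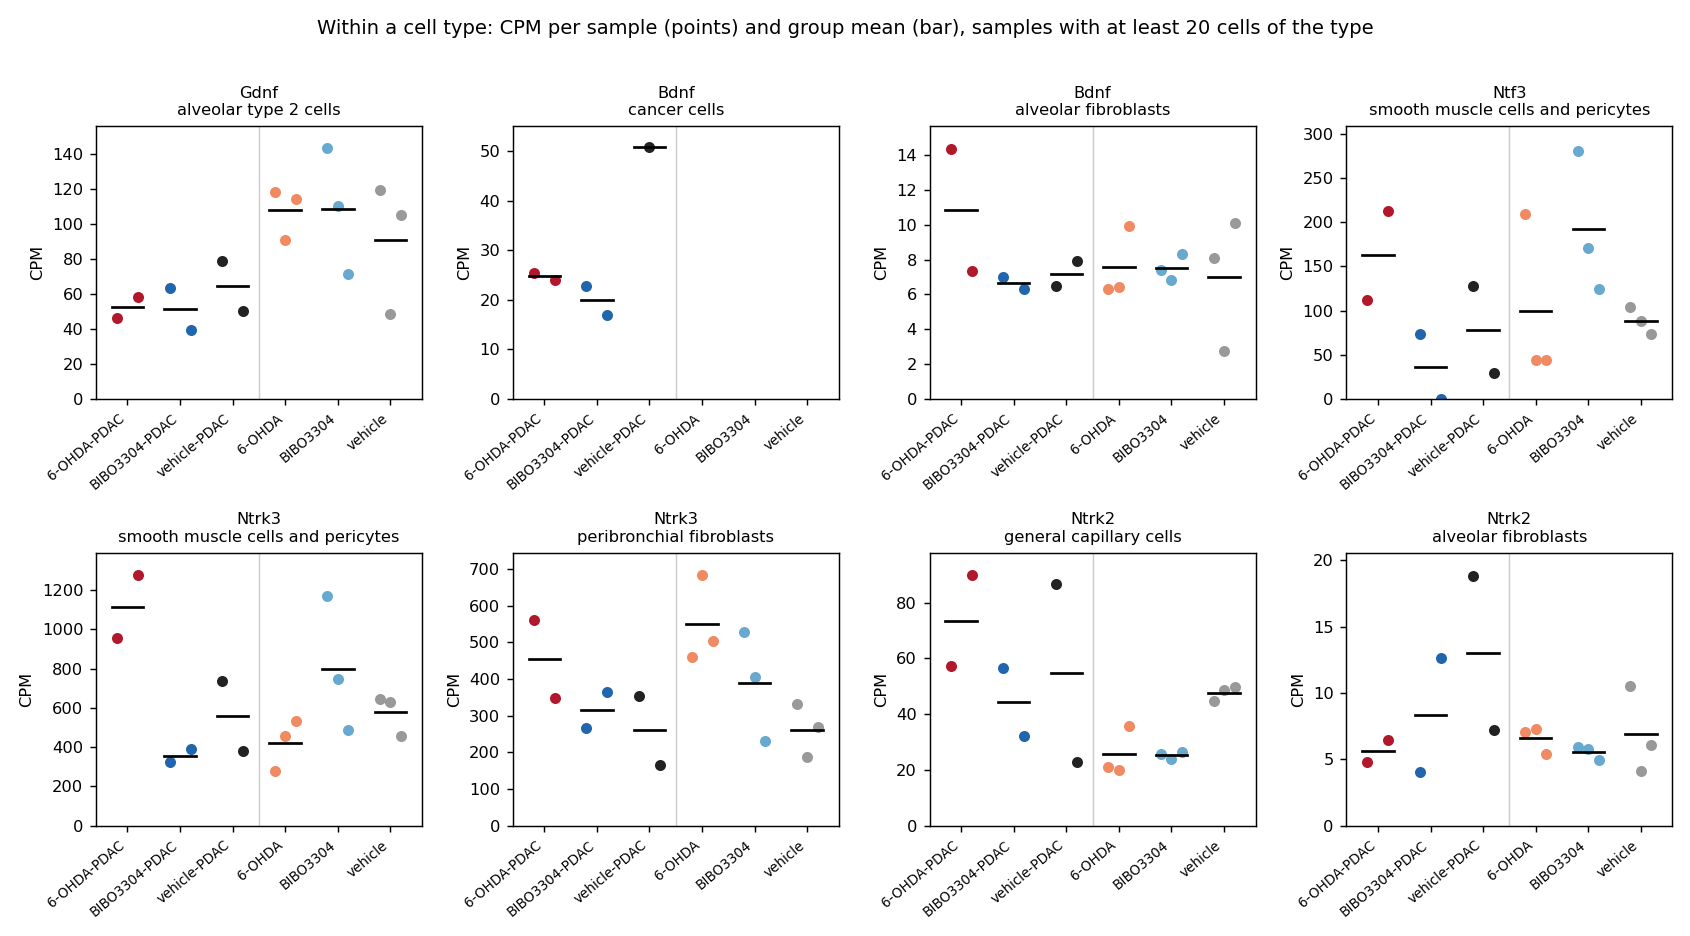
CPM per sample within a cell type (vertical axis from 0, own scale per panel) by group (horizontal axis), for samples with at least 20 cells of the type; bars are group means. The cancer cell panel has no points for the unseeded groups and 1 for vehicle-PDAC; Ntrk2 in general capillary cells is 19.8 to 35.7 CPM in 6-OHDA and 24.1 to 26.6 CPM in BIBO3304 lungs, below the 44.8 to 49.7 CPM of vehicle lungs.

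6-OHDA-PDAC against vehicle-PDAC called 0.414% of genes within types and 0 of 17 member pairs, and 2 pairs had an unadjusted p under 0.05, as did 7.31% of all genes tested within types. Ntrk2 in alveolar fibroblasts had 4.79 and 6.45 CPM in 6-OHDA-PDAC lungs, against 18.8 and 7.24 CPM in vehicle-PDAC lungs. Both 6-OHDA-PDAC samples were lower, and the size of the difference (-1.40 ± 0.41, edgeR adjusted p = 0.187) rests on vehicle-PDAC 1: it was -0.65 without that sample (0.672) and -1.80 without vehicle-PDAC 2 (0.0881). With no filter on low counts its adjusted p was 0.0271. Ntrk3 in smooth muscle cells and pericytes had 954 and 1274 CPM in 6-OHDA-PDAC lungs, against 738 and 381 CPM in vehicle-PDAC lungs. The groups did not overlap (0.77 ± 0.37, edgeR adjusted p = 0.885), and the 6-OHDA-PDAC values rest on 30 and 25 cells. It was 0.55 without vehicle-PDAC 2 (edgeR adjusted p = 0.997). Ntrk3 in peribronchial fibroblasts had 561 and 349 CPM in 6-OHDA-PDAC lungs and 355 and 164 CPM in vehicle-PDAC lungs (0.64 ± 0.36, edgeR adjusted p = 0.875; 0.36 without vehicle-PDAC 2, and 0.18 to 1.10 over all refits without 1 sample). Over the whole lung, where 3.67% of genes were called and 17% of genes and 2 of 7 members had an unadjusted p under 0.05, Ntrk2 had 7.05 and 9.71 CPM in 6-OHDA-PDAC lungs and 16.02 and 6.95 CPM in vehicle-PDAC lungs. Its fold change was -0.66 ± 0.23 (edgeR adjusted p = 0.147). It was -0.98 without vehicle-PDAC 2 and -0.20 without vehicle-PDAC 1, refits that leave the vehicle-PDAC group 1 sample and take the spread from the other groups.

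BIBO3304-PDAC against vehicle-PDAC called 0.0449% of genes within types and 0% over the whole lung, and no member. At an unadjusted p under 0.05, edgeR had 1388 of 17481 genes over the whole lung (7.94%), with 1 of 7 members, and 7.62% of genes and 1 of 18 member pairs within types. Ntrk2 in alveolar fibroblasts had 4.01 and 12.6 CPM in BIBO3304-PDAC lungs, against 18.8 and 7.24 CPM in vehicle-PDAC lungs. The values overlapped (-1.11 ± 0.44, edgeR adjusted p = 0.362), and the fold change was -1.54 without vehicle-PDAC 2 and -0.37 without vehicle-PDAC 1. Ntrk3 in smooth muscle cells and pericytes had 324 and 389 CPM in BIBO3304-PDAC lungs and 738 and 381 CPM in vehicle-PDAC lungs (-0.76 ± 0.41, edgeR adjusted p = 0.988; -1.02 without vehicle-PDAC 2). Ntrk3 in T cells had 54.8 and 33.4 CPM in BIBO3304-PDAC lungs and 37.9 and 26.6 CPM in vehicle-PDAC lungs (0.58 ± 0.49, edgeR adjusted p = 0.997; 0.62 without vehicle-PDAC 2, and 0.06 to 0.89 over all refits without 1 sample, the lowest without BIBO3304-PDAC 1). The whole-lung member with the smallest p was Ntrk2, with 7.85 and 6.78 CPM in BIBO3304-PDAC lungs and 16.02 and 6.95 CPM in vehicle-PDAC lungs (-0.61 ± 0.23, edgeR adjusted p = 0.544; -0.95 without vehicle-PDAC 2 and -0.16 without vehicle-PDAC 1).

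The last tests asked whether a treatment's effect differed with seeding. For 6-OHDA 0.00837% of genes were called within types and 0% over the whole lung, for BIBO3304 0.461% and 0%, and no member was among them. At an unadjusted p under 0.05, edgeR had 3 of 17 member pairs for 6-OHDA, against 5.04% of all genes within types, and 1 of 18 for BIBO3304, against 12.8%. Over the whole lung it had 1273 genes (7.28%) with 0 of 7 members for 6-OHDA, and 4212 genes (24.1%) with 1 of 7 members for BIBO3304. Ntrk3 in smooth muscle cells and pericytes led both: the difference between effects (seeded minus unseeded) was 1.29 ± 0.49 for 6-OHDA (edgeR adjusted p = 0.708; 1.08 without vehicle-PDAC 2) and -1.15 ± 0.51 for BIBO3304 (edgeR adjusted p = 0.499; -1.41 without vehicle-PDAC 2). Its mean was 1114 CPM in 6-OHDA-PDAC, 356 in BIBO3304-PDAC and 559 in vehicle-PDAC lungs (n = 2 each), and 422 in 6-OHDA, 800 in BIBO3304 and 578 in vehicle lungs (n = 3 each). For 6-OHDA the next pairs were Ntrk2 in general capillary cells (1.15 ± 0.51, edgeR adjusted p = 0.926; 0.69 without vehicle-PDAC 2 and 2.41 without vehicle-PDAC 1) and in alveolar fibroblasts (-1.19 ± 0.56, edgeR adjusted p = 0.725; -1.59 without vehicle-PDAC 2 and -0.44 without vehicle-PDAC 1). For BIBO3304 they were Ntf3 in smooth muscle cells and pericytes (-1.66 ± 0.90, edgeR adjusted p = 0.613) and Bdnf in adventitial fibroblasts (-2.17 ± 1.31, edgeR adjusted p = 0.578). These were -2.17 and -2.42 without vehicle-PDAC 2. Over all refits without 1 sample the difference for Ntf3 ran from -6.95 without BIBO3304-PDAC 1, which leaves that group a single sample, to -0.54 without vehicle-PDAC 1, and that for Bdnf from -3.91 to -1.23. Whole-lung Gdnf had -1.35 ± 0.59 for BIBO3304 (edgeR adjusted p = 0.187; -1.77 without vehicle-PDAC 2, 0.0542; -0.65 without vehicle-PDAC 1), and 0.00150 with no filter on low counts. Whole-lung Ntrk2 had -0.47 ± 0.30 for 6-OHDA (edgeR adjusted p = 0.819; -0.79 without vehicle-PDAC 2 and -0.014 without vehicle-PDAC 1).

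**Figure D4:**
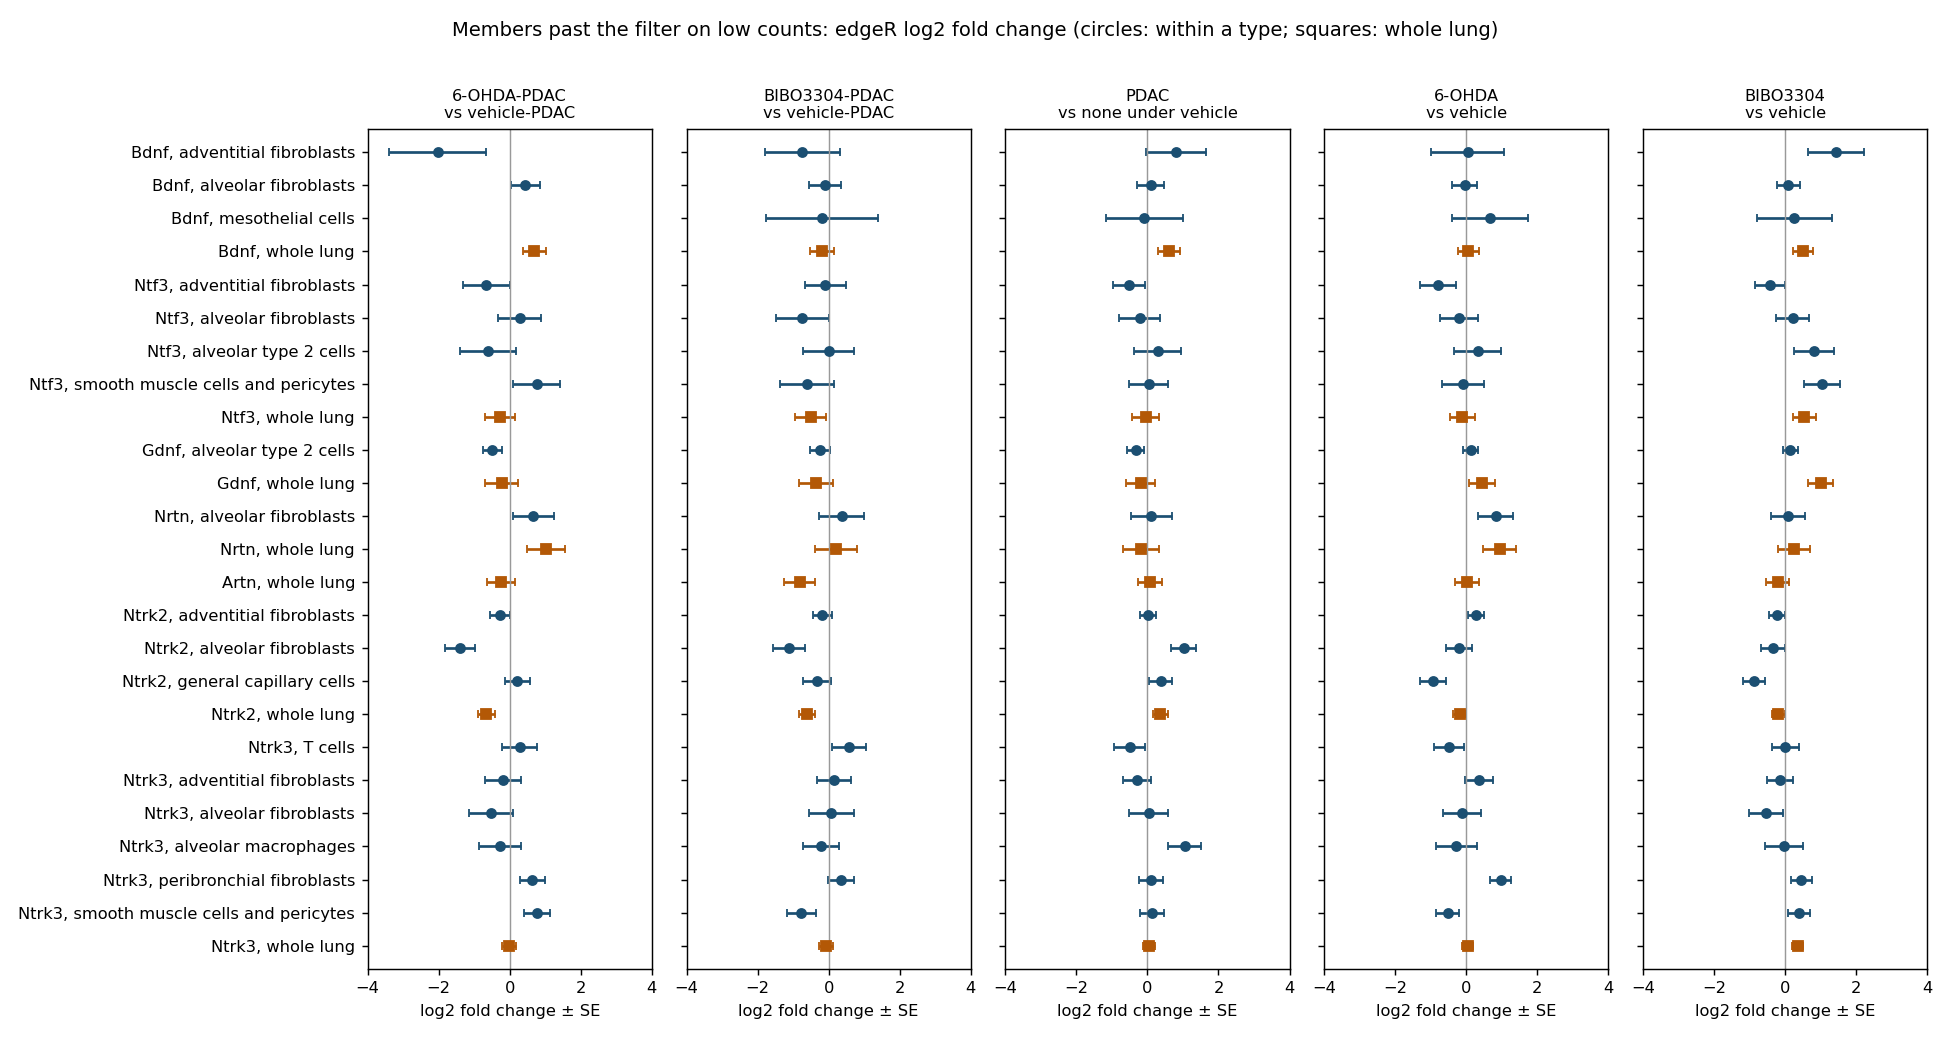
edgeR log2 fold change ± SE (horizontal axis) of every member that passed the filter on low counts, within types (circles) and in the whole lung (squares), for the 5 comparisons between groups. Values within 1 SE of 0 are common, and no member passed the adjusted threshold. In 6-OHDA-PDAC against vehicle-PDAC, Bdnf in adventitial fibroblasts (-2.03 ± 1.37) and Ntrk2 in alveolar fibroblasts (-1.40 ± 0.41) lay more than 1 SE from 0 without passing.

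Other genes of these pathways were followed in lists of neurotrophin partners, GDNF family partners, the ciliary neurotrophic factor and leukaemia inhibitory factor group, Trk signalling adaptors, enzymes that mature neurotrophins, and markers of nerve and glia. Within types, 3 of 2360 tests of these genes were called with a positive value and 4 with a negative one, over all 7 tests. They include Gab1 and Lifr in B cells and Sort1 in alveolar fibroblasts, where the value is a difference between effects of BIBO3304. Over the whole lung 5 of 357 rose and 9 fell. Of all genes tested, 0.00176% to 0.461% were called per comparison within types and 0% to 15.7% over the whole lung. Under BIBO3304 without seeding, alveolar fibroblasts had more Pcsk6, a proprotein convertase (9.02 ± 2.23 CPM in BIBO3304 and 2.09 ± 0.807 CPM in vehicle lungs, n = 3 each; log2 fold change 2.28 ± 0.54, edgeR adjusted p = 0.0425), but this call was lost in each refit without 1 of the 6 samples.

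In the whole lung under BIBO3304 without seeding, 5 genes of these lists rose and 5 fell against vehicle, beside 1245 higher and 1492 lower of all 17481 genes (15.7%). Of the ciliary neurotrophic factor group, 2 of 8 genes rose, Lifr and Il6st, which form the receptor for leukaemia inhibitory factor. The call of Lifr remained in each of 6 refits without 1 sample, and that of Il6st was lost in 5 of 6. Of the maturation list 1 of 7 rose and 2 fell, of signalling 1 of 14 rose and 2 fell, of the GDNF family partners 1 of 5 fell, and of the nerve and glia list 1 of 10 rose. That gene is Prx, which was highest in aerocyte capillary cells here. The largest changes were those of Gdf15, a distant relative of Gdnf (-1.76 ± 0.40, edgeR adjusted p = 0.0157; lost without BIBO3304 1 at 0.0522), Shc3 (-1.23 ± 0.26, 0.0128), Serpine2 (1.01 ± 0.25, 0.0216; lost without BIBO3304 2, BIBO3304 3 or vehicle 2) and Prx (0.93 ± 0.28, 0.0390; lost in 5 of 6 refits). General capillary cells, where Lifr was highest, gave 8.22% to 10.3% of transcripts in BIBO3304 lungs and 2.62% to 6.16% in vehicle lungs, and the part of such shares in these sums was not tested.

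In seeded lungs, 6-OHDA-PDAC against vehicle-PDAC had lower Sort1, which encodes the sorting receptor sortilin that also binds proneurotrophins. It averaged 123 ± 34.5 CPM in 6-OHDA-PDAC and 209 ± 25.3 CPM in vehicle-PDAC lungs over all cells (n = 2 each; -1.04 ± 0.12, edgeR adjusted p = 0.000777). That call remained in each of the 4 refits that left out 1 sample of these groups, vehicle-PDAC 2 included (adjusted p up to 0.0225), each of which leaves a group of 1 sample that is assumed to vary like the others. Gdf15 (-2.38 ± 0.50, edgeR adjusted p = 0.0157), Shc3 (-1.48 ± 0.34, 0.0280) and the convertase gene Furin (-0.66 ± 0.14, 0.0192) fell too. Each of these calls was lost without vehicle-PDAC 2 and also without 6-OHDA-PDAC 1, that of Gdf15 also without 6-OHDA-PDAC 2, and that of Shc3 in all 4 refits. Alveolar macrophages held 35280 of the 52176 Sort1 transcripts, 2403 of 2726 for Gdf15, 1198 of 1340 for Shc3 and 18276 of 26959 for Furin. They gave 15.7% to 17.8% of all transcripts in 6-OHDA-PDAC lungs and 40.2% to 53.3% in vehicle-PDAC lungs, and cancer cells gave 13.7% to 14.9% in 6-OHDA-PDAC lungs and 0% to 5.93% in vehicle-PDAC lungs. The part of such shares in these sums was not tested. Within types, Gfra2 was lower in interstitial macrophages, at 8.21 ± 5.98 CPM in 6-OHDA-PDAC and 34.1 ± 5.55 CPM in vehicle-PDAC lungs (-2.16 ± 0.55, edgeR adjusted p = 0.0284; lost without vehicle-PDAC 2 or 6-OHDA-PDAC 2). Furin was lower in dendritic cells, at 82.6 ± 6.11 CPM in 6-OHDA-PDAC and 178 ± 38.0 CPM in vehicle-PDAC lungs (-1.41 ± 0.35, edgeR adjusted p = 0.0266; lost in 3 of 4 refits, not in that without vehicle-PDAC 2). No gene of these lists was called for 6-OHDA without seeding, for seeding under vehicle, or for BIBO3304 with seeding. The sum over the 17 nerve and glia genes stood between 117 and 205 CPM in every sample, mostly from Mbp and Prx, which immune and endothelial cells also express.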

How the data were processed

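The authors deposited unnormalised transcript counts for every gene in every cell, and a table that gives each cell its sample, treatment, seeding and type. The 16 GEO entries are sublibraries of 1 pool and were not used as replicates. The submitters' processing notes name Seurat 5.3.0 and mm39; no aligner or cell filter is stated. Mitochondrial percent as deposited served only to describe samples. The seeding code of that table (IV) was read as PDAC because the cancer cells lie there.

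Counts were summed by sample and type, leaving out sums of fewer than 20 cells and requiring 2 samples per group in the full data (a refit without 1 sample can leave a group of 1, assumed to vary like the others). Genes passed filterByExpr, were scaled by TMM and fitted over all 6 groups with edgeR 4.0.16 (R 4.3.3), a step tested on simulated data. The SE is the log2 fold change over the root of F. DESeq2 1.42.0 was an alternative. CPM is unscaled. Thinned shares are at 1000 transcripts and omit 13717 shallower cells. Exact 95% intervals are used, and the limit for a count of 0 is that of 3 counts.

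Members and lists were chosen with earlier results of these data known. Named are the 3 pairs with smallest p per comparison within types and the first in the whole lung, up to 4 called genes per comparison and list, and for each member the 5 most alike genes (at least 20 CPM in a type). A few genes of the lists are not reported here.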

Additional observations from a re-analysis of the deposited data

Results flagged for a closer look

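Among the pathway genes, the effect of BIBO3304 differed between seeded and unseeded lungs in 3 cases by the test of that difference (seeded minus unseeded, edgeR, log2). The same edgeR test called 523 of all 113537 tests within types (0.461%), and 12.8% had an unadjusted p under 0.05. Gab1 in B cells differed by 3.89 ± 0.79 (adjusted p = 0.0201), with 81.8 ± 27.3 CPM in BIBO3304-PDAC, 24.5 ± 1.54 in vehicle-PDAC, 9.46 ± 3.26 in BIBO3304 and 33.6 ± 18.2 in vehicle lungs. Lifr in B cells differed by 2.93 ± 0.72 (adjusted p = 0.0384), with 45.4 ± 6.46 CPM in BIBO3304-PDAC, 14.6 ± 7.82 in vehicle-PDAC, 18.2 ± 8.84 in BIBO3304 and 35.4 ± 13.99 in vehicle lungs. Sort1 in alveolar fibroblasts differed by -1.04 ± 0.23 (adjusted p = 0.0312), with 112 ± 28.3 CPM in BIBO3304-PDAC, 148 ± 1.82 in vehicle-PDAC, 213 ± 30.9 in BIBO3304 and 156 ± 34.5 in vehicle lungs. Of 15 refits that each left out 1 sample, 5 lost Gab1, 7 lost Lifr and 5 lost Sort1, each including the refit without vehicle-PDAC 1 and none the one without vehicle-PDAC 2.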

How the results depend on the processing

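No member was called in 14 sets of tests, and 9 alternatives moved a count of 0 to 1. For BIBO3304 against vehicle in the whole lung the count was 1 with no gene filter, with the replicate block, with DESeq2, and without vehicle-PDAC 1 or 2, each time Gdnf (range of the refits that left out a sample 0 to 1). For 6-OHDA-PDAC against vehicle-PDAC it was 1 with no gene filter within types (Ntrk2 in alveolar fibroblasts) and 1 without vehicle-PDAC 2 in the whole lung (Ntrk2; range 0 to 1). For BIBO3304-PDAC against vehicle-PDAC within types it was 1 when groups of 1 sample were allowed (Bdnf in cancer cells, where the lone vehicle-PDAC sample is assumed to vary like the other groups and 546 genes were called higher and 314 lower of 11709), and for the BIBO3304 interaction in the whole lung 1 with no gene filter (Gdnf). The cause was not tested. The replicate block (adjusted p of Gdnf 0.0331) changed no other call. The numbers were not taken to pair the samples: correlations of the deviations of same-numbered samples ran from -0.384 to 0.501, and not every pair exceeded 0.1. RLE size factors, a minimum of 50 cells and fits of only the groups compared called no member. No named difference reversed its sign. For each member, the leading type here is that among types with at least 20 of its transcripts. The member's level there stayed within 1 SD under pooled counts, 50 cells and each sample left out. Thinning lowered shares of cells. With 2 or 3 samples per group and few transcripts per sample, smaller differences were not detectable at this depth.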

Other observations

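Within general capillary cells, those with an Ntrk2 transcript more often carried Etl4 (56.3% against 34.4%), Sema3c, a secreted guidance protein (83.6% against 61.9%), and Scn7a, a sodium channel (60.1% against 43.5%), among cells thinned to 1000 transcripts. In adventitial fibroblasts, cells with Ntrk2 more often carried the complement gene C3 (67.2% against 48.1%), Auts2 (54.7% against 39.9%) and Gpc6 (61.3% against 47.1%). In smooth muscle cells and pericytes, cells with Ntrk3 more often carried Mast4 (76.0% against 49.6%) and Gpc6 (87.0% against 61.0%). These genes were those with the largest differences among all genes, picked after the values were seen, and cells with the member were deeper before thinning (medians of 2474 and 1950 transcripts in general capillary cells). They are descriptions of co-occurrence with no test.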
